A study of Mus musculus with 12 samples.

Results

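The 34 genes described here make haem, bring iron into the cell and into mitochondria, store and release iron, build iron-sulfur clusters, or break haem down and move it. They were chosen by known function from a table of 24107 mouse genes, and every one of the 34 is in that table. By role, 12 belong to haem synthesis, 5 to iron uptake, 6 to iron storage, export and sensing, 5 to iron-sulfur cluster assembly, and 6 to haem breakdown and transport. The series holds 12 RNA-seq libraries, 3 for each of 4 groups of bone marrow cells, from C57BL/6 mice. Control MEP were megakaryocyte-erythroid progenitors, the marrow cells that give rise to platelets and red cells, from wild-type mice, and control marrow was whole bone marrow from wild-type mice, with no GFP selection named. Leukemic MEP and GFP+ marrow cells carried the genotype Prdm16s, the short form of the transcription factor Prdm16, and came from recipient mice with leukemia. The labels name neither the vector and promoter that drive Prdm16s, nor the host cells left in the recipients, nor whether each library is a mouse of its own. The p-values therefore measure the spread between these libraries, which may be technical. Prdm16s, leukemia and being a recipient were present together in the same 2 groups and cannot be told apart. In the marrow comparison the selection of GFP+ cells cannot be told apart from them either, as none is named for control marrow.

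Values are FPKM, fragment counts divided by transcript length and by library size, on the authors' scaling. Changes are log2 differences of FPKM + 1 ± SE, with adjusted p-values from limma over all 11462 genes that passed a filter on low values. Prdm16 ran from 0.363 to 0.957 FPKM in the control libraries and from 6.35 to 15.3 FPKM in the Prdm16s libraries. Recovered read totals, in M (1e+06 reads), were 6.72 to 9.71 M in 10 libraries, 1.15 M in GFP+ marrow replicate 2 and 0.572 M in leukemic MEP replicate 3. Leukemic MEP replicate 3 stood apart: its summed neutrophil markers reached 86777 FPKM against 663 and 1952 FPKM in the other leukemic MEP libraries, and its summed erythroid markers were 119 FPKM against 659 and 587 FPKM. Several results in which it weighs are given with and without it. A MEP change given only once may still depend on that library. Xist, transcribed from the inactive X chromosome, was at 39.2 to 57.1 FPKM in replicates 1 and 2 of both Prdm16s groups and at no more than 0.0904 FPKM elsewhere, and Ddx3y, on the Y chromosome, was at no more than 0.392 FPKM in those 4 libraries and at 10.3 FPKM or more elsewhere. Every library with Xist and almost no Ddx3y was thus a Prdm16s library, so sex, as read from these genes, is in part confounded with the Prdm16s comparisons. Without leukemic MEP replicate 3 the MEP comparison sets only libraries with Xist against controls with Ddx3y. In these bulk libraries fewer cells of a type and less RNA per cell cannot be told apart.

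Haem is an iron-bearing ring made in steps that start and end in mitochondria. Alas1, in most cells, or Alas2, in red cell precursors, joins glycine and succinyl-CoA, Alad, Uros and Urod take part in building the ring in the cytosol, Cpox and Ppox oxidise it, and Fech inserts iron. Red cell precursors are the largest users of iron in the body: they take up transferrin-bound iron through the transferrin receptor Tfrc, reduce it with Steap3, pass it out of endosomes through Slc11a2 and into mitochondria through Slc25a37. Ferritin, built of Fth1 and Ftl1 chains, stores iron, Slc40a1 (ferroportin) exports it, and macrophages recover it from old red cells by cleaving haem with Hmox1.

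Several of these genes are controlled after transcription by the iron-responsive element (IRE), an RNA hairpin that the iron sensors Aco1 and Ireb2 bind when iron is low. The letters searched were a C, 5 bases, the loop CAGUGN and 5 bases that pair with the first 5, in the annotated UTRs of mouse coding transcripts (GENCODE vM21, GRCm38, the mm10 build of the files). They were found in 155 of 21875 genes (0.709%), 5 of them among the 34. The sites are shown because the 5 genes differ in their response below. Each is printed 5′ to 3′ as RNA with the loop in capitals, and each lies in an exon.
Alas2, 5′ UTR, chrX:150547464-150547480, plus strand: cguccuCAGUGCagggc
Fth1, 5′ UTR, chr19:9982738-9982754, plus strand: cuucaaCAGUGCuugaa
Ftl1, 5′ UTR, chr7:45459785-45459801, minus strand: cuucaaCAGUGUuugaa
Slc40a1, 5′ UTR, chr1:45925471-45925487, minus strand: cagcuaCAGUGUuagcu
Tfrc, 3′ UTR, chr16:32631225-32631241, plus strand: cggaagCAGUGCcuucc
Tfrc, 3′ UTR, chr16:32631604-32631620, plus strand: cgggagCAGUGUcuucc
Tfrc, 3′ UTR, chr16:32631669-32631685, plus strand: cggagaCAGUGAucucc
Tfrc, 3′ UTR, chr16:32631716-32631732, plus strand: cgggaaCAGUGUuuccc
RNA abundance does not measure the translation that a 5′ UTR element controls. Of the 5 genes, Tfrc and Slc40a1 fell in both Prdm16s comparisons, Fth1 fell in MEP, Alas2 fell in marrow, and Ftl1 passed the test in neither.

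Most of the 34 genes were lower in the Prdm16s libraries. In leukemic MEP against control MEP 19 fell, among them 9 of the 12 haem synthesis genes and 4 of the 5 uptake genes, and 3 rose, namely Hmox2, Slc48a1 and Ncoa4. Of all genes tested, 12.3% fell and 13.7% rose in that comparison. The median change of the 34 was -1.27 against 0.02 over all genes. In GFP+ marrow against control marrow 14 fell and 2 rose, Hmox2 and Slc48a1, where 6.03% of all genes fell and 3.02% rose, and the median of the 34 was -1.13 against -0.05. With libraries rescaled to equal totals the marrow counts were 18 fallen and 1 risen of the 34, and 853 fallen and 195 risen of all genes against 691 and 346. Without leukemic MEP replicate 3 the MEP counts were 18 fallen and 2 risen. The marrow counts then became 20 fallen and 3 risen, in a fit where the 4 groups share 1 estimate of spread, and those of all genes 1187 fallen and 939 risen against 691 and 346.

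Markers of red cell precursors were lower in the same libraries. The 10 erythroid markers summed to 1655, 1902 and 1612 FPKM in control MEP and to 659, 587 and 119 FPKM in leukemic MEP. They summed to 601, 809.9 and 832 FPKM in control marrow and to 41.7, 73.8 and 149.8 FPKM in GFP+ marrow, with no marker at 0 throughout any group. Gata1, the defining erythroid transcription factor, was still at 242, 209.6 and 37.7 FPKM in leukemic MEP. Markers of megakaryocytes, the platelet precursors, went the other way in MEP: the 6 summed to 13.8, 124 and 17.5 FPKM in control MEP and to 5648, 4653 and 288 FPKM in leukemic MEP. Pf4, a platelet granule chemokine, made up 5067, 4225 and 82.6 FPKM of the leukemic sums. In marrow the megakaryocyte markers summed to 129.8, 195 and 127 FPKM in control and 354, 511 and 194 FPKM in GFP+ cells, with overlapping values. Pf4 made up most of these sums and was higher without overlap, from 99.3, 167 and 103 FPKM to 298, 421 and 176 FPKM. Itga2b was lower without overlap, from 9.06, 10 and 7.61 FPKM to 3.49, 4.47 and 4.89 FPKM, and the rest overlapped. The 6 monocyte markers summed to no more than 6.06 FPKM in control MEP and to 38.1, 32.7 and 1561 FPKM in leukemic MEP, and the 6 B cell markers to no more than 5.97 FPKM and to 76.2, 28.8 and 44.7 FPKM. In leukemic MEP replicates 1 and 2 Ms4a6c made up 26.1 and 18.3 FPKM of the monocyte sums. Csf1r, Fcgr3 and Ccr2 were at no more than 0.431 FPKM there. Cd79b alone made up 75.9, 28.7 and 31.3 FPKM of the leukemic B cell sums. In marrow the monocyte sums were 1359 to 1465 FPKM in control and 673 to 1069.9 FPKM in GFP+ cells, and the B cell sums 138 to 188 FPKM and 71.1 to 117 FPKM. The monocyte markers went both ways there. F13a1 rose from 50.5, 25.8 and 22 FPKM to 201, 109.9 and 117 FPKM, and Ms4a6c was also higher without overlap. Ly6c2, Fcgr3, Csf1r and Ccr2 were lower without overlap. Of the B cell markers Cd79b overlapped and the rest were lower. The part of these cell types in the changes of the haem and iron genes was not tested.

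**Figure D1:**
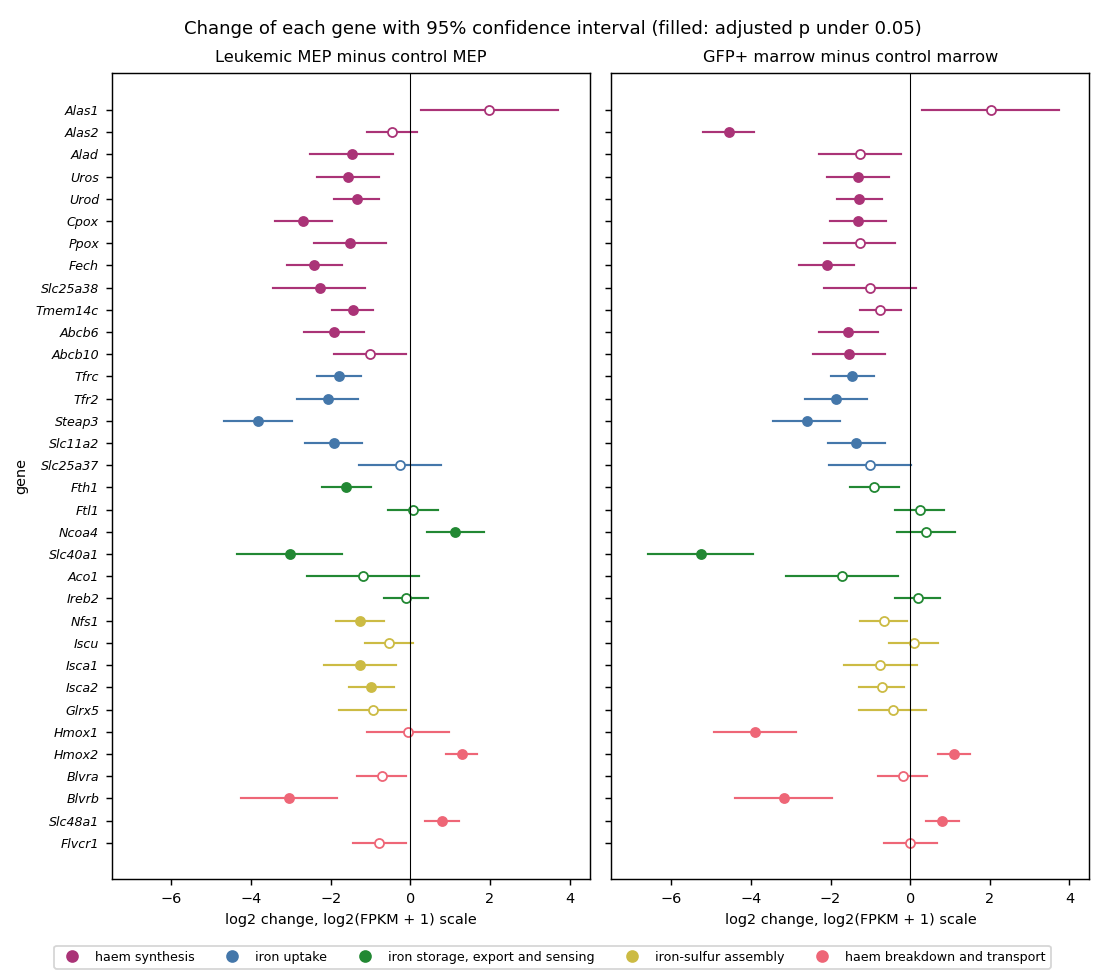
Log2 change of each of the 34 genes (points) with its 95% confidence interval (lines), leukemic minus control MEP on the left and GFP+ minus control marrow on the right, coloured by role, filled where the adjusted p was under 0.05. Most intervals lie below 0 in both panels, and Alas2 and Hmox1 lie far below 0 on the right and near 0 on the left.

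In haem synthesis 9 of 12 genes fell and none rose in leukemic MEP, and Alas1, Alas2 and Abcb10 did not pass the test. In marrow 7 fell and none rose. Among the enzymes the largest falls in MEP were those of Cpox and Fech, at a late oxidation step and at iron insertion. Cpox, coproporphyrinogen oxidase, was at 20.8, 35.9 and 44.2 FPKM in control MEP and 3.87, 5.85 and 3.05 FPKM in leukemic MEP. All control values lay above all leukemic values, and Cpox fell by 2.69 ± 0.33 (adjusted p = 0.000116). Fech, ferrochelatase, was at 181, 128 and 151 FPKM in control and 25.1, 35.2 and 24.1 FPKM in leukemic MEP, again with no overlap, and fell by 2.41 ± 0.32 (adjusted p = 0.000214). Without leukemic MEP replicate 3 the changes were -2.52 (adjusted p = 0.00019) for Cpox and -2.31 (adjusted p = 0.000383) for Fech.

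In marrow Cpox was at 14.8, 17.8 and 18.9 FPKM in the controls and 4.25, 6.75 and 8.58 FPKM in GFP+ cells, and fell by 1.31 ± 0.33 (adjusted p = 0.027). Fech was at 112, 105 and 98 and 25.7, 38.9 and 13.2 FPKM, and fell by 2.10 ± 0.32 (adjusted p = 0.00159). Both genes were separated between the groups in marrow as in MEP. The call of Cpox in marrow was lost without control marrow replicate 1, 2 or 3 or GFP+ marrow replicate 1 or 2 (adjusted p = 0.0631 to 0.116).

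In MEP the genes of the middle steps of ring building, Urod, Uros and Alad, fell by less than Cpox and Fech. The fall of Ppox in MEP, given below, and the change of Cpox in marrow lay within the range of these genes. Differences between steps were not tested. Urod, which trims the side chains of uroporphyrinogen, was at 292, 392 and 315 FPKM in control and 174, 143 and 86.6 FPKM in leukemic MEP, and at 137, 190.1 and 174 FPKM in control and 75.4, 63.5 and 63.9 FPKM in GFP+ marrow. The Prdm16s libraries were below the controls in each population, by 1.35 ± 0.26 (adjusted p = 0.00257) in MEP and by 1.28 ± 0.26 (adjusted p = 0.00851) in marrow. Uros, which closes the ring, was at 44.8, 42.8 and 48.6 FPKM in control and 17.4, 25 and 6.90 FPKM in leukemic MEP, and at 31.8, 38.5 and 32 and 12, 17.2 and 10.7 FPKM in the marrow groups. Uros fell by 1.57 ± 0.36 (adjusted p = 0.00719) in MEP and by 1.32 ± 0.36 (adjusted p = 0.0389) in marrow. Its MEP change was -1.08 (adjusted p = 0.00495) without leukemic MEP replicate 3. Alad, which makes the pyrrole unit, was at 123, 169 and 135 FPKM in control and 85.8, 82.7 and 17.5 FPKM in leukemic MEP. It fell by 1.47 ± 0.48 (adjusted p = 0.0395) in MEP, and leukemic MEP replicate 3 was the lowest library, so that the change was -0.74 (adjusted p = 0.039) without it. In marrow Alad changed by -1.26 ± 0.48 (adjusted p = 0.132) with separated groups, at 48.8, 69.3 and 71.8 FPKM in control and 19.9, 26.2 and 31.9 FPKM in GFP+ cells.

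Some of these calls did not hold when any 1 of several libraries was left out, in some cases a library outside the comparison. That of Alad in MEP was lost without control MEP replicate 1, 2 or 3, control marrow replicate 2 or 3 or GFP+ marrow replicate 2 (adjusted p = 0.0517 to 0.119). In marrow that of Urod was lost without control marrow replicate 2 or 3 (adjusted p = 0.0503 to 0.0576), and that of Uros without control MEP replicate 1, 2 or 3, control marrow replicate 1, 2 or 3 or GFP+ marrow replicate 1 or 3 (adjusted p = 0.0548 to 0.155).

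Ppox, protoporphyrinogen oxidase, was at 62.8, 78.7 and 72.3 FPKM in control MEP and 17.1, 16.1 and 51.5 FPKM in leukemic MEP. Here leukemic MEP replicate 3 was the highest of its group, and Ppox fell by 1.51 ± 0.41 (adjusted p = 0.0187) with it and by 2.03 (adjusted p = 0.000454) without it. In marrow it was at 50.8, 57.8 and 60.6 FPKM in the controls and 21.6, 14.2 and 38.2 FPKM in GFP+ cells and changed by -1.27 ± 0.41 (adjusted p = 0.081). Abcb6, a porphyrin transporter, fell by 1.91 ± 0.34 (adjusted p = 0.00175) in MEP, from 29.5, 30.1 and 23.6 FPKM to 10.6, 8.48 and 3.02 FPKM. It fell by 1.55 ± 0.34 (adjusted p = 0.0145) in marrow, from 13, 16.1 and 17.1 FPKM to 4.10, 5.25 and 4.41 FPKM. Neither population had overlapping Abcb6 values. The call of Ppox in MEP was lost without control MEP replicate 2 or 3 or leukemic MEP replicate 1 or 2 (adjusted p = 0.0571 to 0.0641), and that of Abcb6 in marrow without control marrow replicate 2 or 3 (adjusted p = 0.0711 to 0.0756).

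The mitochondrial transporters parted between the populations in their calls, though no difference of their changes passed the test. Slc25a38, which brings glycine in for the first step, was at 70.4, 97.3 and 84.7 FPKM in control MEP and 29.6, 25.5 and 5.47 FPKM in leukemic MEP, and fell by 2.28 ± 0.53 (adjusted p = 0.00816), or by 1.57 (adjusted p = 0.00822) without leukemic MEP replicate 3. Its values overlapped in marrow, at 32.6, 54.2 and 51.8 FPKM against 13.7, 18.7 and 41 FPKM, with a change of -1.0 ± 0.53 (adjusted p = 0.279). The difference of its changes was -1.28 ± 0.75 (adjusted p = 0.419). Tmem14c, which moves protoporphyrinogen inward, was at 321, 598 and 440.4 FPKM in control and 163, 148 and 171 FPKM in leukemic MEP, and fell by 1.45 ± 0.24 (adjusted p = 0.000997). In marrow Tmem14c changed by -0.75 ± 0.24 (adjusted p = 0.0739). Abcb10, which stabilises the iron importer Slc25a37, changed by -1.01 ± 0.42 (adjusted p = 0.0982) in MEP and fell by 1.53 ± 0.42 (adjusted p = 0.0408) in marrow, from 24.8, 20.4 and 22.1 FPKM to 4.48, 4.52 and 16.4 FPKM, and GFP+ replicate 3 lay closest to the controls. That call was lost without control MEP replicate 2 or 3, control marrow replicate 1, 2 or 3 or GFP+ marrow replicate 1 or 2 (adjusted p = 0.055 to 0.14). The difference of its changes was 0.52 ± 0.59 (adjusted p = 0.708).

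The isoforms of the first enzyme behaved unlike the rest. Alas2 (chrX:150547417-150570622), the red cell form, was at 52.2, 53.9 and 48.2 FPKM in control marrow and 1.01, 1.40 and 1.31 FPKM in GFP+ marrow. The GFP+ values lay within the range of the MEP libraries, and the change was a fall by 4.55 ± 0.29 (adjusted p = 3.15e-06). In MEP it was already low, at 1.19, 2.38 and 1.41 FPKM in control and 0.454, 0.742 and 1.69 FPKM in leukemic cells, with overlapping values and a change of -0.46 ± 0.29 (adjusted p = 0.264). These levels rested on few reads, 20 to 35 in control MEP, 2 to 12 in leukemic MEP and 3 to 22 in GFP+ marrow. The change in MEP minus the change in marrow was 4.09 ± 0.41 (adjusted p = 0.000256). Alas2 lies on the X chromosome, and the GFP+ library without Xist, replicate 3, lay between the other 2.

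Alas1 (chr9:106233455-106247954), the form of most other cells, was at 14.7, 14.7 and 12 FPKM in control MEP and 16.4, 30.3 and 363 FPKM in leukemic MEP. All leukemic values lay above the controls, but replicate 3 alone exceeded 100 FPKM, and the change was 1.98 ± 0.79 (adjusted p = 0.0848) with it and 0.66 (adjusted p = 0.0584) without it. In marrow Alas1 was at 198, 157 and 199 FPKM in the controls and 731, 702 and 811 FPKM in GFP+ cells. Every GFP+ library exceeded every control library, and the change was 2.02 ± 0.79 (adjusted p = 0.142). With leukemic MEP replicate 3 left out of the shared fit the same marrow change, 2.02 (adjusted p = 5.6e-05), passed the test. The 8 neutrophil markers summed to 22.3, 369 and 144 FPKM in control MEP and to 663, 1952 and 86777 FPKM in leukemic MEP, so that replicate 3 was highest in them as in Alas1. In marrow their sums overlapped, at 72682, 86942 and 89575 FPKM in control and 109599, 78714 and 118009.8 FPKM in GFP+ cells, but the members went both ways. Mpo was at 6504, 5570.5 and 6951 FPKM in control and 9155, 7922 and 9221 FPKM in GFP+ marrow. Elane and S100a8 were likewise higher without overlap, as Alas1 was. Camp went from 8143, 8073 and 9330 FPKM to 1612, 459 and 3352 FPKM, and Ngp was also lower without overlap. S100a9, Ltf and Ly6g overlapped. The part of neutrophil lineage cells in the level of Alas1 was not tested.

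**Figure D2:**
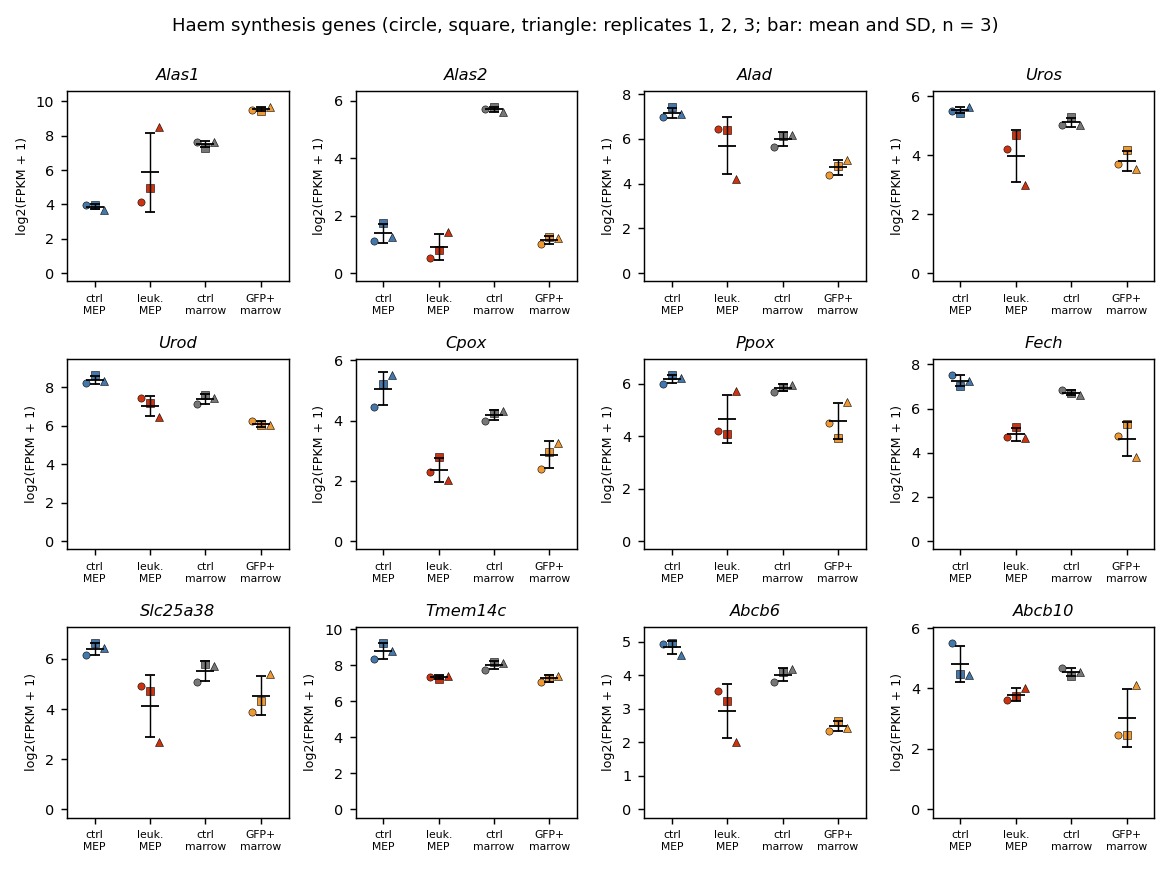
Level of each of the 12 haem synthesis genes as log2(FPKM + 1) in every library, by group, with mean and SD (n = 3). Alas2 is high in control marrow alone, Alas1 is highest in GFP+ marrow, and leukemic MEP replicate 3 (triangle) is high in Alas1 and low in Alad and Slc25a38.

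Within each library the log2 ratio of Alas2 over Alas1, taken on FPKM + 1, was -2.84, -2.22 and -2.43 in control MEP and -3.58, -4.17 and -7.08 in leukemic MEP. It was -1.91, -1.53 and -2.02 in control marrow and -8.51, -8.19 and -8.46 in GFP+ marrow. The ratio was lower in the Prdm16s libraries of both populations without overlap, by a mean difference of -2.45 in MEP and -6.57 in marrow, each with a 2-sided exact permutation p of 0.1. That is the smallest p that 3 libraries against 3 allow, and the adjusted value over the 8 ratio tests was 0.133. Without leukemic MEP replicate 3, which had the lowest ratio of its group, the mean difference in MEP was -1.38.

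Promoter sequence was read where genes moved together. RefSeq starts (GRCm38.p6) were matched for 27 of the 34 genes, and the 250 bases before each start were searched on both strands. The letters that GATA factors bind were taken as AGATAA and 3 further forms, TGATAA with T first, AGATAG with G last, and TGATAG with both. They were present for 9 of the 27 (33.3%) and for 29.7% of all 27025 genes. The letters CCNCNCCC, of the kind that Klf1 binds, were present for 19 (70.4%) and for 48.5% of all. The letters GCTGAGTCA, of the kind that Nfe2 binds, were present for 0 and for 0.426%. Matches of a motif may overlap one another. The share of the 27 with GATA letters was close to that of all genes. The 120 bases before 4 starts are shown as examples of such letters in genes that fell (Alas2, Cpox, Uros) and in one that rose (Hmox2). The other 5 of the 9 genes were Steap3, Tfr2, Isca2 and Blvrb, which fell, and Ncoa4, which rose in MEP. GATA and CCNCNCCC matches are in capitals, on the strand of the gene. The Uros start lies inside the gene, downstream of its first start, and the Hmox2 start is 1 of 3.
Alas2, chrX:150547297-150547416, plus strand: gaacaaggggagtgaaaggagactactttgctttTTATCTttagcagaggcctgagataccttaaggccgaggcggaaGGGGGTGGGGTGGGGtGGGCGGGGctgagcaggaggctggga
Cpox, chr16:58670088-58670207, plus strand: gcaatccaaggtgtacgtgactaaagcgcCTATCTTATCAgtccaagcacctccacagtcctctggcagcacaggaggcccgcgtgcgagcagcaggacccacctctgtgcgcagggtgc
Uros, chr7:133702501-133702620, minus strand: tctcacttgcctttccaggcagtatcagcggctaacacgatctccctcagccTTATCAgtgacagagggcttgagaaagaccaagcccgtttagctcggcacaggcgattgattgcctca
Hmox2, chr16:4741493-4741612, plus strand: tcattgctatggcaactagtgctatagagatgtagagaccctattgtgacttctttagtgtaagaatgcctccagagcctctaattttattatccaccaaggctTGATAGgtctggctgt
The Cpox stretch holds 2 GATA matches that overlap, the Uros and Hmox2 stretches hold 1 each, and the Alas2 stretch holds 1 with 4 CCNCNCCC matches. These are matches of letters, and no binding was measured.

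Of 11 further haem synthesis genes, all tested, 3 fell and none rose in MEP, and 2 fell and 1 rose in marrow. Fam210b, a mitochondrial protein of red cell precursors, fell by 1.22 ± 0.22 (adjusted p = 0.00182) in MEP and by 1.02 ± 0.22 (adjusted p = 0.0122) in marrow. Tspo, an outer mitochondrial membrane protein that binds porphyrins, rose in marrow by 1.02 ± 0.28 (adjusted p = 0.0443), from 493, 649.6 and 647 FPKM to 1137, 1105 and 1372 FPKM. In marrow the call of Fam210b was lost without control marrow replicate 1, 2 or 3 (adjusted p = 0.0505 to 0.0785), and that of Tspo without control MEP replicate 3, leukemic MEP replicate 1, control marrow replicate 1, 2 or 3 or GFP+ marrow replicate 1, 2 or 3 (adjusted p = 0.0534 to 0.168).

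The iron uptake route fell in both populations, with 4 of 5 genes lower in each and none higher. Steap3, the endosomal ferrireductase, changed most. It was at 108, 95.6 and 83.1 FPKM in control MEP and 6.30, 5.89 and 5.27 FPKM in leukemic MEP. The leukemic libraries lay close together and far below every control, a fall by 3.82 ± 0.39 (adjusted p = 3e-05), and leukemic MEP replicate 3 lay with the other 2. In marrow Steap3 was at 30.4, 44.7 and 44.8 FPKM in control and 3.23, 3.79 and 13.7 FPKM in GFP+ cells, a fall by 2.59 ± 0.39 (adjusted p = 0.00148).

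Tfrc, transferrin receptor 1, was at 107, 64.6 and 88.2 FPKM in control MEP and 19.2, 27 and 25.7 FPKM in leukemic MEP, and fell by 1.80 ± 0.25 (adjusted p = 0.00032). In marrow it was at 49.9, 43.3 and 38.1 FPKM in control and 11.5, 18.5 and 16.5 FPKM in GFP+ cells, and fell by 1.45 ± 0.25 (adjusted p = 0.00339). Tfr2, which senses transferrin saturation and binds the erythropoietin receptor, was at 103, 87.1 and 68.5 FPKM in control and 37.8, 17.1 and 11.1 FPKM in leukemic MEP. The groups did not overlap for either receptor. Tfr2 fell by 2.08 ± 0.35 (adjusted p = 0.00123) in MEP and, from 32.5, 38.3 and 38.9 FPKM to 9.89, 7.33 and 11.1 FPKM, by 1.86 ± 0.35 (adjusted p = 0.00625) in marrow. The within-library log2 ratio of Tfr2 over Tfrc differed by -0.28 in MEP (2-sided exact permutation p = 0.7) and by -0.41 in marrow (2-sided exact permutation p = 0.4), with overlapping values. Without leukemic MEP replicate 3 the MEP difference turned to 0.15.

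Slc11a2, the divalent metal transporter that moves iron out of endosomes, was at 44.4, 37.5 and 36.3 FPKM in control and 13.3, 8.56 and 7.58 FPKM in leukemic MEP, and fell by 1.93 ± 0.33 (adjusted p = 0.00124). It was at 16.4, 17.9 and 20.7 and 3.89, 5.80 and 12 FPKM in the marrow groups and fell by 1.35 ± 0.33 (adjusted p = 0.0239). The marrow call was lost without control marrow replicate 1, 2 or 3 or GFP+ marrow replicate 1 or 2 (adjusted p = 0.0666 to 0.108). Slc25a37 (mitoferrin), the mitochondrial importer, was the exception. It was at 9.01, 8.84 and 12.7 FPKM in control MEP and 6.44, 3.82 and 20.4 FPKM in leukemic MEP, where replicate 3 was above all controls and the others below them. Its change was -0.27 ± 0.47 (adjusted p = 0.711) with that library and -0.88 (adjusted p = 0.0832) without it, and in marrow -1.0 ± 0.47 (adjusted p = 0.224).

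Of 12 further uptake genes 7 were tested, of which 2 rose and 2 fell in MEP and none passed in marrow by limma (0 higher and 4 lower at an unadjusted p under 0.05, and 3 lower by limma-voom on recovered reads). Trf, which encodes transferrin, rose in MEP by 3.74 ± 0.40 (adjusted p = 4.03e-05), from 2.81, 1.67 and 1.86 FPKM to 40.3, 21.1 and 74.7 FPKM, and was at 257, 198 and 219 FPKM in control and 115, 54.8 and 100.1 FPKM in GFP+ marrow. Hfe, a partner of the transferrin receptors, rose in MEP by 2.15 ± 0.53 (adjusted p = 0.0105), from 0.561, 0.312 and 0.406 FPKM to 3.13, 2.91 and 14.6 FPKM. The leukemic libraries were above the controls for both, and highest in replicate 3, without which the changes were 3.30 (adjusted p = 1.89e-05) and 1.5 (adjusted p = 0.0169). Slc39a8, a zinc and iron importer, fell by 2.05 ± 0.32 (adjusted p = 0.000656), and Picalm, a clathrin adaptor needed for transferrin receptor uptake, by 1.45 ± 0.34 (adjusted p = 0.00886).

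In iron storage, export and sensing 2 of 6 genes fell and 1 rose in MEP, and 1 fell in marrow. Slc40a1, the iron exporter, was at 37.7, 20.7 and 25.7 FPKM in control MEP and 0.59, 0.991 and 12 FPKM in leukemic MEP. Replicates 1 and 2 were at or under 1 FPKM and replicate 3 was higher, yet all 3 lay below the controls. Slc40a1 fell by 3.03 ± 0.61 (adjusted p = 0.00346) in MEP, and by 3.99 (adjusted p = 1.54e-06) without replicate 3. In marrow it went from 89.5, 64.7 and 66 FPKM to 1.12, 0.991 and 0.685 FPKM, with 7 to 48 reads behind the GFP+ values, a fall by 5.26 ± 0.61 (adjusted p = 0.000238). The difference of its changes was 2.23 ± 0.86 (adjusted p = 0.195).

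The macrophage markers moved with Slc40a1 in marrow: the 10 summed to 852, 861 and 918 FPKM in control marrow and to 24.3, 32.5 and 31.8 FPKM in GFP+ marrow, where 2 of the 10 were at 0 in all 3 libraries. Cd5l, a macrophage-specific secreted protein, was at 41.5, 43.6 and 56.6 FPKM in control and 0.225, 0 and 0 FPKM in GFP+ marrow, and Vcam1, carried by the macrophages of erythroblastic islands, at 161, 88.2 and 98.3 and 1.67, 1.97 and 4.33 FPKM. In MEP the macrophage sum was low in both groups, from 4.21 to 11 FPKM in control and from 4.37 to 15.4 FPKM in leukemic cells, and Slc40a1 fell there too. The part of macrophages in these changes was not tested.

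The ferritin chains parted. Fth1, the heavy chain that oxidises iron, was at 1327, 2278 and 1869.8 FPKM in control MEP and 718, 625 and 437 FPKM in leukemic MEP, and fell by 1.61 ± 0.28 (adjusted p = 0.00142). In marrow it was at 1086, 1528 and 1388 FPKM in control and 648, 754 and 719 FPKM in GFP+ cells, with no overlap but not past the test, with a change of -0.90 ± 0.28 (adjusted p = 0.0683). Ftl1, the light chain that helps the iron core form, was at 523, 1013 and 721 FPKM in control and 798, 636 and 867 FPKM in leukemic MEP. The light chain values overlapped in both populations, with changes of 0.07 ± 0.29 (adjusted p = 0.888) in MEP and 0.24 ± 0.29 (adjusted p = 0.669) in marrow, where the levels were 953, 1222 and 1173 and 1339, 1056 and 1581 FPKM.

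Within libraries the log2 ratio of Ftl1 over Fth1 was -1.34, -1.17 and -1.37 in control MEP and 0.15, 0.02 and 0.99 in leukemic MEP. It was -0.19, -0.32 and -0.24 in control marrow and 1.05, 0.49 and 1.14 in GFP+ marrow. It was negative in every control library and positive in every Prdm16s library, with mean differences of 1.68 and 1.14, each with a 2-sided exact permutation p of 0.1 and an adjusted value of 0.133. Both ferritin genes have near-identical pseudogene copies, so their counts are uncertain to the extent that reads were split among copies.

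**Figure D3:**
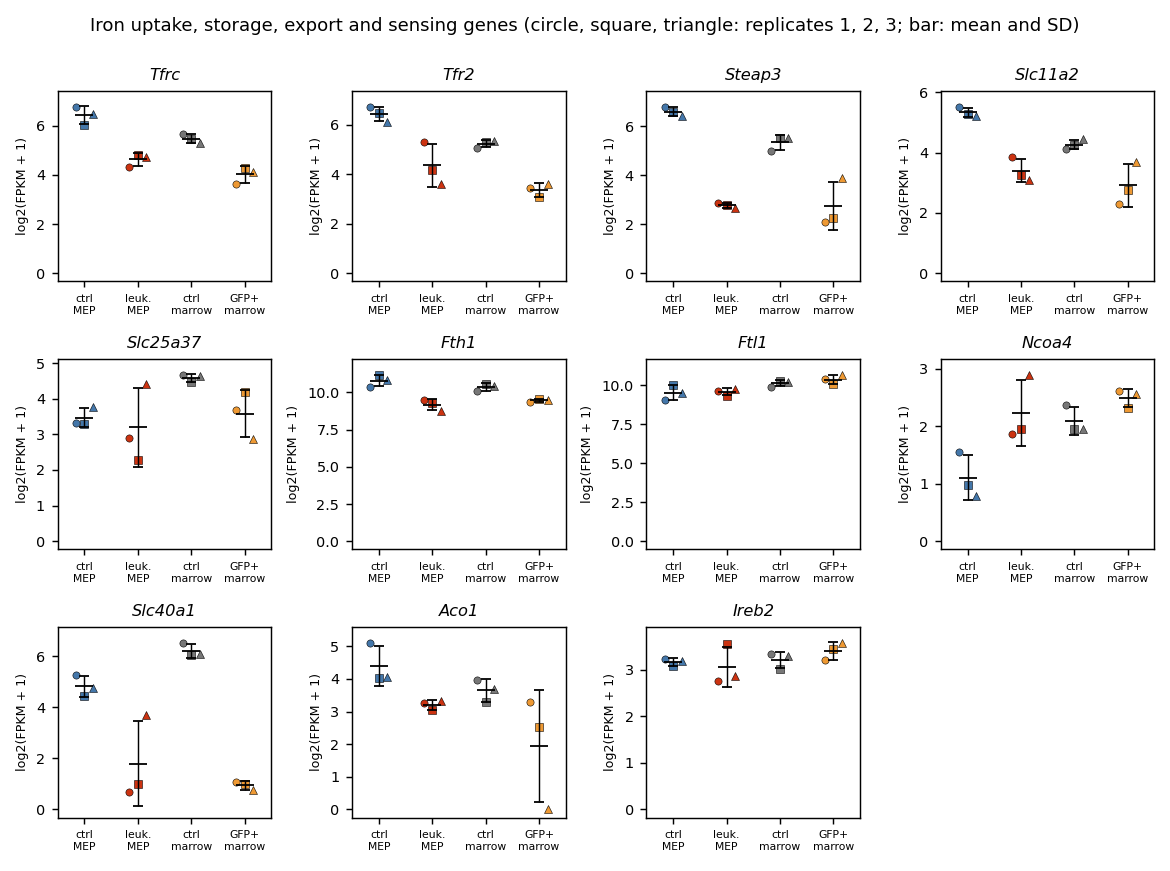
Level of the 11 genes of iron uptake and of iron storage, export and sensing as log2(FPKM + 1) in every library, by group, with mean and SD (n = 3). Steap3 separates Prdm16s from control libraries in both populations, and Slc40a1 is near 0 in all Prdm16s libraries but leukemic MEP replicate 3.

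Ncoa4, which carries ferritin to lysosomes for iron release, rose in MEP from 1.92, 0.962 and 0.733 FPKM to 2.63, 2.86 and 6.39 FPKM, a change of 1.13 ± 0.33 (adjusted p = 0.0257). Without replicate 3, the highest library, the change was 0.80 (adjusted p = 0.0623) and no longer passed. The call was also lost without other libraries, and in all without control MEP replicate 2 or 3 or leukemic MEP replicate 3 (adjusted p = 0.0623 to 0.104). Its marrow change was 0.40 ± 0.33 (adjusted p = 0.506). The iron sensors did not pass the test. Aco1, the aconitase that binds IREs when it loses its cluster, was at 33.1, 15.2 and 15.8 FPKM in control and 8.65, 7.20 and 8.92 FPKM in leukemic MEP, and changed by -1.19 ± 0.65 (adjusted p = 0.198) in MEP and by -1.71 ± 0.65 (adjusted p = 0.129) in marrow. It is listed at 0 in GFP+ replicate 3, a library of 9.44 M reads, and at 8.79 and 4.72 FPKM in the other 2. Ireb2, the sensor degraded when iron is ample, lay between 5.75 and 10.9 FPKM in all 12 libraries. Its change was -0.11 ± 0.26 (adjusted p = 0.786) in MEP, with a 95% confidence interval from -0.67 to 0.45, and 0.19 ± 0.26 (adjusted p = 0.707) in marrow, with one from -0.37 to 0.75.

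Of 11 further genes of storage, export and sensing 3 passed the filter. None of them passed in MEP (0 at an unadjusted p under 0.05, and 0 by limma-voom), and Pcbp1, an iron chaperone that loads ferritin, rose in marrow by 0.79 ± 0.20 (adjusted p = 0.0316), from 88.1, 95.2 and 108 FPKM to 181, 159 and 166 FPKM. That call was lost without control MEP replicate 3, control marrow replicate 1, 2 or 3 or GFP+ marrow replicate 1, 2 or 3 (adjusted p = 0.0545 to 0.128).

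Of the 5 genes of iron-sulfur cluster assembly 3 fell in MEP and none passed the test in marrow by limma, where 0 were higher and 2 lower at an unadjusted p under 0.05, and 2 were lower by limma-voom on recovered reads. Nfs1, the cysteine desulfurase that supplies sulfur, was at 73.7, 68 and 62.9 FPKM in control and 33.8, 31.2 and 20 FPKM in leukemic MEP, with no overlap, and fell by 1.27 ± 0.28 (adjusted p = 0.00554). Isca2, a late-acting assembly factor, was at 100.4, 170.4 and 188 and 75.3, 96.7 and 56.9 FPKM and fell by 0.98 ± 0.26 (adjusted p = 0.0169). Isca1, its partner, was at 32.7, 37.2 and 36.5 and 19.7, 22.7 and 6.12 FPKM and fell by 1.26 ± 0.42 (adjusted p = 0.0442), but its change without replicate 3 was -0.72 (adjusted p = 0.106), which did not pass. The call of Isca1 was lost without control MEP replicate 1, 2 or 3, leukemic MEP replicate 3, control marrow replicate 1, 2 or 3 or GFP+ marrow replicate 1 (adjusted p = 0.0559 to 0.112), and that of Isca2 without control MEP replicate 2 or 3 (adjusted p = 0.0661 to 0.0802). Iscu, the scaffold on which clusters form, overlapped between the groups, at 31.6, 56.1 and 47.1 against 38.3, 35.7 and 19.2 FPKM, with a change of -0.54 ± 0.28 (adjusted p = 0.177). Glrx5, a carrier of finished clusters, changed by -0.94 ± 0.39 (adjusted p = 0.0934), with control replicate 1 within the leukemic range.

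In marrow the 5 changes ran from -0.75 ± 0.42 (adjusted p = 0.31) for Isca1 to 0.09 ± 0.28 (adjusted p = 0.894) for Iscu. Nfs1 and Isca2 were separated between the groups there, at 36.1, 43 and 43.5 against 29.7, 33 and 16.2 FPKM and 99, 129.9 and 118 against 67.1, 67.6 and 73.8 FPKM. No difference between the MEP and marrow changes passed for any of the 5, and the adjusted p-values of these differences were 0.458 or more, so the populations were not shown to differ here.

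Of 19 further iron-sulfur genes, all tested, 9 fell and none rose in MEP, and the median change was -0.75. All 19 changes were below 0, but 17 were without leukemic MEP replicate 3, where 8 fell and 1 rose with a median of -0.62, and 17 were by limma-voom. The 1 that rose there was Hscb, a co-chaperone of cluster transfer, at 51.3, 88.5 and 68.8 FPKM in control and 137, 114 and 14.6 FPKM in leukemic MEP, with a change of -0.13 ± 0.61 (adjusted p = 0.897) with that library and 0.87 (adjusted p = 0.013) without it. None passed the test in marrow, where the median was -0.11, 2 were lower at an unadjusted p under 0.05 and 1 was lower by limma-voom. Lyrm4, which stabilises Nfs1, fell by 1.72 ± 0.47 (adjusted p = 0.0178), from 249.6, 396 and 447 FPKM to 151, 188 and 42 FPKM. Replicate 3 was lowest, and without it the change was -1.06 (adjusted p = 0.0197). The call of Lyrm4 was lost without control MEP replicate 2 or 3 (adjusted p = 0.0593 to 0.0711).

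Haem breakdown and transport held genes that moved both ways. Hmox1 (chr8:75093618-75100593), the inducible haem oxygenase, was at 189, 212 and 178 FPKM in control marrow and 11.5, 5.29 and 26.8 FPKM in GFP+ marrow. No values overlapped, and it fell by 3.90 ± 0.48 (adjusted p = 0.000384). In MEP it was at 1.63, 3.33 and 0.62 FPKM in control and 1.37, 1.16 and 2.12 FPKM in leukemic cells, overlapping, with 2 to 39 reads per library and a change of -0.07 ± 0.48 (adjusted p = 0.933). The change in MEP minus the change in marrow was 3.83 ± 0.67 (adjusted p = 0.00683). The fall in marrow went with that of the macrophage markers given above. The part of macrophages in it was not tested.

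Hmox2 (chr16:4726361-4766742), the constitutive haem oxygenase, rose in both populations. It was at 22.7, 26.8 and 30.1 FPKM in control MEP and 65, 58.1 and 75.1 FPKM in leukemic MEP, a change of 1.29 ± 0.18 (adjusted p = 0.000381). It was at 47.1, 54.1 and 49.9 FPKM in control marrow and 107, 117 and 101 FPKM in GFP+ marrow, a change of 1.09 ± 0.18 (adjusted p = 0.00304). The groups did not overlap in either population, and the MEP change was 1.19 (adjusted p = 0.000446) without replicate 3. The log2 ratio of Hmox1 over Hmox2 was 1.98, 1.95 and 1.81 in control marrow and -3.12, -4.23 and -1.87 in GFP+ marrow, so that the isoform with the higher level per length was Hmox1 in every control marrow library and Hmox2 in every GFP+ library. In MEP Hmox2 was the higher isoform throughout, with ratios of -3.17, -2.68 and -4.26 in control and -4.80, -4.77 and -4.61 in leukemic cells. The mean difference was -4.99 in marrow and -1.35 in MEP, each with a 2-sided exact permutation p of 0.1.

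**Figure D4:**
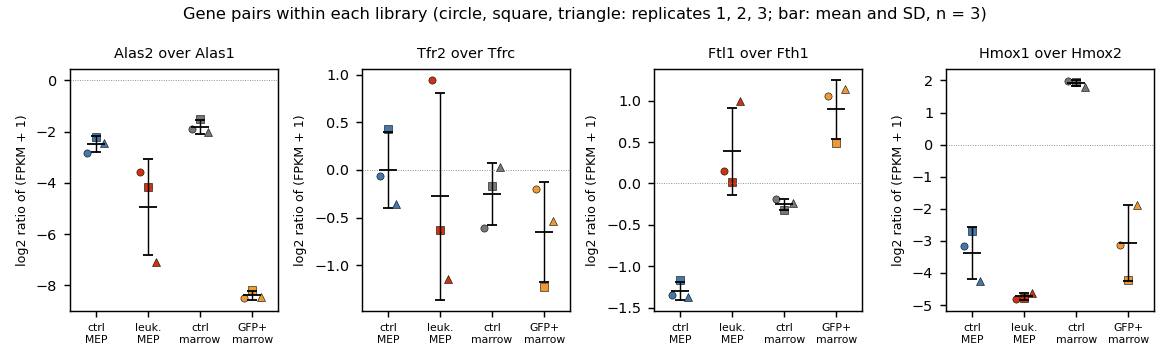
Log2 ratio of FPKM + 1 between gene pairs within each library, by group, with mean and SD (n = 3); the dotted line at 0 marks equal levels. The ratios Alas2 over Alas1, Ftl1 over Fth1 and Hmox1 over Hmox2 do not overlap between control and Prdm16s libraries of a population, and Tfr2 over Tfrc does.

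Blvrb, the biliverdin reductase abundant in red cells, was the 1 gene of the 6 that fell in MEP. It was at 561, 1077 and 814 FPKM in control and 165, 128 and 40.3 FPKM in leukemic MEP, and fell by 3.05 ± 0.56 (adjusted p = 0.00195), or by 2.44 (adjusted p = 0.00278) without replicate 3. In marrow it was at 245, 407 and 346 FPKM in control and 19.9, 26 and 83.1 FPKM in GFP+ cells, and fell by 3.17 ± 0.56 (adjusted p = 0.00386). Blvra, the main biliverdin reductase of other tissues, changed by -0.72 ± 0.28 (adjusted p = 0.0818) in MEP, at 71.9, 92.5 and 77 against 67.4, 58.1 and 28.5 FPKM, and by -0.18 ± 0.28 (adjusted p = 0.751) in marrow. Slc48a1, which exports haem from lysosomes to the cytosol, rose in both populations. It was at 71.5, 87 and 66.9 FPKM in control and 163, 118 and 117 FPKM in leukemic MEP, a change of 0.80 ± 0.19 (adjusted p = 0.0102), and at 76.2, 74.6 and 90.5 and 138, 148 and 137 FPKM in the marrow groups, a change of 0.81 ± 0.19 (adjusted p = 0.0221). The call was lost in MEP without control MEP replicate 3 (adjusted p = 0.0512) and in marrow without control marrow replicate 1, 2 or 3 or GFP+ marrow replicate 1 or 2 (adjusted p = 0.0567 to 0.115). With libraries rescaled to equal totals its marrow rise no longer passed (limma adjusted p = 0.118). Flvcr1, a haem exporter that guards red cell precursors from haem excess, changed by -0.78 ± 0.31 (adjusted p = 0.0792) in MEP and by 0.00 ± 0.31 (adjusted p = 0.998) in marrow.

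**Figure D5:**
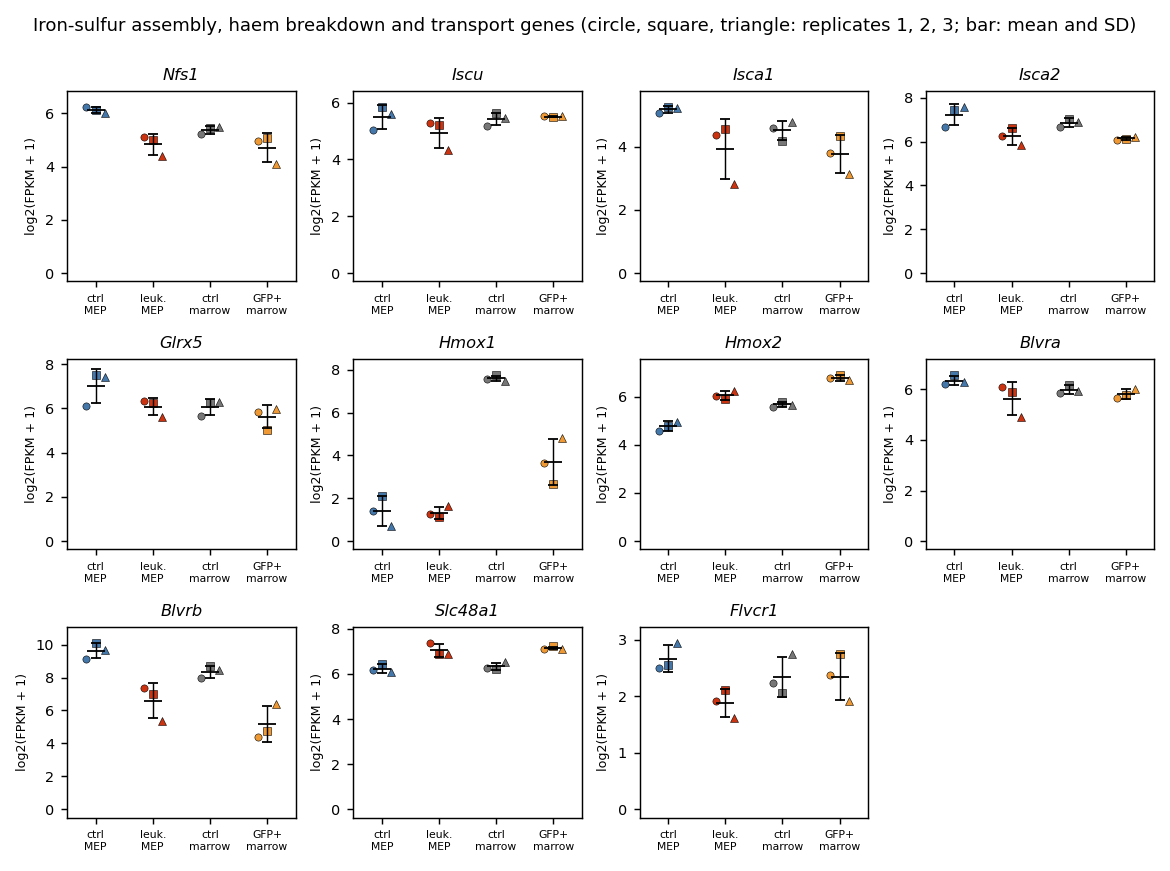
Level of the 11 genes of iron-sulfur assembly and of haem breakdown and transport as log2(FPKM + 1) in every library, by group, with mean and SD (n = 3). Hmox1 is high in control marrow alone, Hmox2 and Slc48a1 are higher in Prdm16s than in control libraries of both populations, and Blvrb is lower.

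Of 12 further genes of haem breakdown, scavenging and response 9 were tested, of which 1 rose and 3 fell in MEP, and 1 rose and 3 fell in marrow. Hebp1, a haem-binding protein, fell by 4.62 ± 0.61 (adjusted p = 0.000204) in MEP, from 109, 168 and 121 FPKM to 4.91, 1.15 and 11 FPKM, and fell by 3.88 ± 0.61 (adjusted p = 0.00188) in marrow, from 57.3, 83.3 and 72.9 FPKM to 1.59, 2.62 and 11.1 FPKM. Abcg2, a porphyrin exporter, fell by 1.99 ± 0.52 (adjusted p = 0.0143) in MEP. Cd163, the macrophage receptor for haemoglobin bound to haptoglobin, fell by 2.86 ± 0.40 (adjusted p = 0.000931) in marrow, from 15.9, 7.96 and 9.95 FPKM to 2.04, 0.412 and 0 FPKM. Hp, haptoglobin itself and a granule protein of neutrophils, rose in MEP by 4.54 ± 1.24 (adjusted p = 0.0182), but its 818 FPKM in leukemic MEP replicate 3 stood against 8.15 and 12.7 FPKM in the others, and the change without it was 2.47 (adjusted p = 0.00081). That call was lost without control MEP replicate 1 or 3 (adjusted p = 0.0602 to 0.0655). Gclm, a subunit of the enzyme that starts glutathione synthesis, rose in marrow by 1.32 ± 0.32 (adjusted p = 0.023), from 60.4, 65.2 and 73 FPKM to 169, 233 and 117 FPKM, a call lost without control marrow replicate 1, 2 or 3 or GFP+ marrow replicate 1 or 2 (adjusted p = 0.0614 to 0.094).

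The change in MEP and the change in marrow were compared directly in the same fit, where 4.52% of all genes had a higher and 0.366% a lower change in MEP. Of the 34 genes 2, Alas2 and Hmox1, had a higher change in MEP and 0 a lower one at the threshold, with 2 lower at an unadjusted p under 0.05 and 0 by limma-voom. Both were low in control MEP and high in control marrow, so on log2(FPKM + 1) neither could fall as far in MEP as in marrow. For the other 32 genes the test of the difference did not pass, which does not show that they changed alike. Over all genes the split was 518 higher and 42 lower, 705 and 18 with equal totals, and 312 and 72 with quantile normalization, which gave 1 of the 34 a lower change. The interval of the difference ran from -2.39 to -0.37 for Cpox and from 0.36 to 4.10 for Slc40a1.

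Between the control populations 5 of the 34 genes were higher in MEP, where 2.63% of all genes were, and 4 were lower, where 12.3% were. Urod, Tfrc, Tfr2, Steap3 and Slc11a2 were higher in MEP, from 0.95 ± 0.25 (adjusted p = 0.0225) for Tfrc to 1.25 ± 0.39 (adjusted p = 0.0493) for Steap3. Alas1, Alas2, Hmox1 and Hmox2 were lower, by -6.19 ± 0.48 (adjusted p = 5.37e-06) for Hmox1, -4.32 ± 0.29 (adjusted p = 2.37e-06) for Alas2, -3.65 ± 0.79 (adjusted p = 0.00728) for Alas1 and -0.91 ± 0.18 (adjusted p = 0.00475) for Hmox2. Control MEP had the endosomal uptake route at a higher level than marrow while both forms of the first haem synthesis enzyme were lower. The 5 higher genes rested on small margins. The call of Urod was lost without control MEP replicate 2 or 3 or control marrow replicate 1 or 3 (adjusted p = 0.0592 to 0.108), that of Tfrc without control MEP replicate 1 or 3 or control marrow replicate 2 or 3 (adjusted p = 0.0765 to 0.101), that of Tfr2 without control MEP replicate 1, 2 or 3, control marrow replicate 1, 2 or 3 or GFP+ marrow replicate 1 (adjusted p = 0.0538 to 0.143), that of Steap3 without control MEP replicate 1, 2 or 3, leukemic MEP replicate 1 or 2 or control marrow replicate 1, 2 or 3 (adjusted p = 0.0576 to 0.196), and that of Slc11a2 without control MEP replicate 1, 2 or 3, leukemic MEP replicate 2, control marrow replicate 1, 2 or 3 or GFP+ marrow replicate 2 (adjusted p = 0.0549 to 0.17). Leaving out 1 library at a time gave 0 to 10 such genes. With equal totals 8 were higher and 4 lower, and with quantile normalization 3 and 4, where all genes split 594 and 1326, and 724 and 1084, against 302 and 1414.

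Between the Prdm16s populations few of the genes differed. In leukemic MEP against GFP+ marrow 0 of the 34 were higher (4 at an unadjusted p under 0.05, and 4 by limma-voom), where 0.977% of all genes were, and 2 were lower, where 2.08% were. Alas1 differed by -3.68 ± 0.79 (adjusted p = 0.0315) and Hmox1 by -2.36 ± 0.48 (adjusted p = 0.0252). Leaving out leukemic MEP replicate 3, whose Alas1 level was nearer to marrow, moved the Alas1 difference to -5.00 (adjusted p = 8.08e-08) and gave 5 genes higher and 3 lower, where 627 of all genes were higher and 1133 lower. With equal totals 1 of the 34 was higher and 2 lower, and with quantile normalization 1 and 1, where all genes split 510 and 133, and 83 and 111, against 112 and 238. The Alas1 call was lost without control MEP replicate 1, 2 or 3, leukemic MEP replicate 1 or 2, control marrow replicate 1, 2 or 3 or GFP+ marrow replicate 1, 2 or 3 (adjusted p = 0.0521 to 0.111), and the Hmox1 call without leukemic MEP replicate 1 or 2 or GFP+ marrow replicate 1 or 3 (adjusted p = 0.0517 to 0.0898).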

How the data were processed

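RNA of 12 mouse libraries was sequenced after Smart-seq2 amplification, per the labels' protocols. The authors deposited 1 table of FPKM values for 24107 genes. Per the submitters' processing notes the tools were CASAVA, bcl2fastq, STAR 2.5.3a and DESeq2 1.18.1, with the build mm10. Annotation, read counter and strand setting are each "not given in the sources used here", and reads of overlapping and antisense genes cannot be told apart. All values of the 16728 genes above 0 (100%) came out as whole reads over a gene length and a library term, within a tolerance of 0.02, and these recovered reads give the depths. For genes above 0 in few libraries such a fit is found almost whatever the values, so the share is no check for them. The smallest fitting reads were taken, which can understate the reads of such genes by a common factor.

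The test was limma-trend (limma 3.58.1, R 4.3.3) on log2(FPKM + 1), a scale that understates the change of low genes, fitted over all 4 groups at once with 8 residual degrees of freedom. It covered 11462 genes that reached 1 FPKM in 3 or more libraries, among them all 34 described here, and called genes at a Benjamini-Hochberg adjusted p under 0.05 over all 11462. A count model was not used because the deposited unit is FPKM, and limma-voom on recovered reads was an alternative. The alternatives also covered other pseudocounts, filters, scalings, weights, groupings and omitted libraries. Ratios were compared by exact permutation in Python 3.11.15 with scipy 1.17.1. The script was tested on simulated data.

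The 34 genes, 65 further pathway genes (49 tested) and 46 markers of other cells were chosen with earlier results of these data known. From each pathway list the called genes of largest change are named, up to 2 in each direction in MEP and in marrow, except some that are not reported here. Those of the 34 genes are all named. Genes of other kinds were named after their values were seen. Gene positions are from RefSeq on GRCm38.p6.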

Additional observations from a re-analysis of the deposited data

Results flagged for a closer look

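Alas2 and Hmox1 were the 2 of the 34 genes whose change in MEP differed from their change in marrow in the test of that difference. The change of Alas2 in MEP exceeded that in marrow by 4.09 ± 0.41 (adjusted p = 0.000256) on the log2 scale, where limma gave -0.46 ± 0.29 (adjusted p = 0.264) in MEP and -4.55 ± 0.29 (adjusted p = 3.15e-06) in marrow. For Hmox1 the difference was 3.83 ± 0.67 (adjusted p = 0.00683), from -0.07 ± 0.48 (adjusted p = 0.933) in MEP and -3.90 ± 0.48 (adjusted p = 0.000384) in marrow. Both calls were kept in all 22 alternatives, with Alas2 between 3.83 and 4.28 and Hmox1 between 3.31 and 4.38 when 1 library at a time was left out. Control MEP held only 1.19 to 2.38 FPKM of Alas2 and 0.62 to 3.33 FPKM of Hmox1. On log2(FPKM + 1) a fall as large as that in marrow was not possible there. Keeping the calls therefore does not show that the populations responded differently. The 10 macrophage markers summed to 852, 861 and 918 FPKM in the control marrow libraries and to 24.3, 32.5 and 31.8 FPKM in GFP+ marrow, and the 10 erythroid markers to 601, 809.9 and 832 FPKM and to 41.7, 73.8 and 149.8 FPKM. Their part in these differences was not tested.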

How the results depend on the processing

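Over the MEP, marrow and difference tests the 34 genes had 2309 values under the alternatives: no called value changed sign, 81 lost a call, 75 gained one, and 92 uncalled values had the other sign. Leaving out 1 library at a time gave 15 to 22 genes lower and 1 to 4 higher in MEP, 8 to 20 lower and 1 to 3 higher in marrow, 0 to 1 lower in the difference, 0 to 10 higher and 4 to 7 lower in control MEP against control marrow, and 0 to 5 higher and 0 to 3 lower in leukemic MEP against GFP+ marrow. The cause of these shifts was not tested. With sample weights 22 genes were lower in marrow, 5 higher and 3 lower in the difference, 18 higher and 8 lower between controls, and 8 higher and 5 lower between Prdm16s groups. All-gene counts grew as well with these weights, from 691 to 1906 lower in marrow, from 518 to 1962 higher and from 42 to 1004 lower in the difference, from 302 to 2473 higher and from 1414 to 3038 lower between controls, and from 112 to 1512 higher and from 238 to 1773 lower between Prdm16s groups. With limma-voom on recovered reads 22 were lower in marrow, 11 higher and 7 lower between controls, and 4 higher and 4 lower between Prdm16s groups. Of all genes 1103 were then lower in marrow, 810 higher and 1921 lower between controls, and 648 higher and 1132 lower between Prdm16s groups. With both shallow libraries left out 1 was lower in the difference, 10 higher and 7 lower between controls, and 7 higher and 4 lower between Prdm16s groups. All-gene counts there were 174 lower in the difference, 867 higher and 1982 lower between controls, and 603 higher and 1082 lower between Prdm16s groups. With only the 2 groups compared 1 was higher in MEP, 14 higher and 7 lower between controls, and 0 lower between Prdm16s groups. Over all genes that setting gave 983 higher in MEP, 1272 higher and 2398 lower between controls, and 0 lower between Prdm16s groups. With equal totals 1 was higher in marrow, 8 higher between controls and 1 higher between Prdm16s groups. With quantile normalization 1 was lower in the difference, 3 higher between controls, and 1 higher and 1 lower between Prdm16s groups. A pseudocount of 0.5 gave 3 higher between controls, and no filter gave 2 higher between controls and 1 lower between Prdm16s groups. With a pseudocount of 0.1 the difference in the ratio of Alas2 over Alas1 in marrow was -7.30. The difference in the ratio of Tfr2 over Tfrc in MEP ran from -0.89 to 0.15 when 1 library was left out. Equal totals moved the median of all genes from -0.05 to -0.25 in marrow and from 0.00 to 0.37 between Prdm16s groups.

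The groups share replicate numbers, but same-numbered deviations correlated by -0.157 to -0.0521 in MEP and by -0.0619 to 0.0204 in marrow. Across populations they correlated by 0.0734 to 0.497 between the controls and by 0.0862 to 0.215 between the Prdm16s groups, where 5 of the 6 libraries tested correlated best with their own number. In no comparison did every pair exceed 0.1, so the numbers were not taken to pair the samples. That choice does not show that same-numbered libraries of different populations came from different mice. The main tests between populations ignore any such pairing. In both Prdm16s groups replicate 3 also differed from replicates 1 and 2 in Xist and Ddx3y. With the number as a replicate block 3 genes were higher and 19 lower in MEP, 2 higher and 14 lower in marrow, 3 higher and 4 lower between controls, and 0 higher and 2 lower between Prdm16s groups. Depth limits Alas2 and Hmox1 in MEP, where single libraries held as few as 2 reads.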

Other observations

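Levels within the haem pathway were uneven within a group. Among the 12 haem synthesis genes in control MEP, FPKM per gene ran from 1.19, 2.38 and 1.41 for Alas2 and 14.7, 14.7 and 12 for Alas1 to 321, 598 and 440.4 for Tmem14c and 292, 392 and 315 for Urod, so the first step had the lowest levels of the pathway in those libraries. In GFP+ marrow Alas1 was the highest of the 12, at 731, 702 and 811 FPKM, and Alas2 the lowest, at 1.01, 1.40 and 1.31 FPKM.

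Aco1 had 248, 22 and 0 recovered reads in the GFP+ marrow libraries, the 0 in the deepest of them.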
